A study of Mus musculus with 28 samples.

Results

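The nuclear-encoded respiratory chain genes were followed through 6 groups of mouse thymocytes measured by RNA sequencing. Members were chosen by symbol: every row whose name starts with Nduf, Uqcr or Atp5, the 4 genes Sdha, Sdhb, Sdhc and Sdhd, and every row starting with Cox4, Cox5, Cox6, Cox7 or Cox8. This gave 92 genes, of which 86 reached 1 CPM (counts per M counts, before any scaling) in at least 4 of 28 libraries. With library sizes scaled by TMM, as in the CPM values given below, the number was also 86. All 86 were among the 14371 genes tested. They divide into 42 genes of complex I, 4 of complex II, 8 of complex III, 15 of complex IV and 17 of ATP synthase, assembly factors that carry these names included.

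The groups were C57BL/6 wild type, Lmo2tg (mice with an Lmo2 transgene) and Lmo2tg; Ldb1-KO (the same transgene with Ldb1 deleted, called Ldb1-KO below), each sorted as DN2/3 and DN4 thymocytes, successive stages that lack CD4 and CD8. Wild type had 4 libraries per stage and the other genotypes had 5 each. Both transgenic genotypes carry the Lmo2 transgene, and the labels give neither the promoter that drives it nor the age of the mice. The mouse lines listed for the study include Lck-Cre, Rag1-Cre and IL-7Ra-Cre lines, floxed Ldb1 mice, a Rosa26-EYFP-Cre reporter and CD45.1 congenic mice, and the labels do not say which Cre deleted Ldb1 in a given sample. The labels also describe the cells as CD4 T cells. All 13 DN thymocyte markers checked (Ptcra, Il2ra, Rag1 and others) were detected in each group, with summed levels of 6850 to 10700 CPM per library.

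The respiratory chain of the inner mitochondrial membrane passes electrons from NADH (complex I) and succinate (complex II) through complex III and cytochrome c to oxygen at complex IV, and ATP synthase uses the resulting proton gradient to make ATP. Most subunits are encoded in the nucleus, translated in the cytosol and imported, while a few core subunits are encoded by mitochondrial DNA and were not analysed here. In the thymus, the DN4 stage follows selection for a productive T-cell receptor beta chain, a step accompanied by strong proliferation and growth. Subunit genes share promoter features such as NRF1 and ETS-family (GABP) motifs and often move together.

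Totals ran from 28.1 to 107 M counts per library. Lmo2 ran from 0 to 0.41 CPM in wild type and from 25.3 to 68.9 CPM in the transgenic libraries. Ldb1 was at 57.1 to 120 CPM in Ldb1-KO DN2/3 and 6.11 to 54.7 CPM in Ldb1-KO DN4. It was at 247 to 550 CPM in the other groups, so both labels matched their gene. The Ldb1 level left in Ldb1-KO differed between the stages, and its part in the Ldb1-KO stage step was not tested. Wild-type and transgenic libraries are named by different patterns, so that genotype and library series cannot be told apart in any comparison with wild type. No label says that replicates were separate animals, and the p-values below measure the spread among these samples. RNA came from bulk sorted cells, in which a change in cell composition and a change in RNA per cell cannot be told apart.

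The 6 genes below the level limit were Ndufa4l2 (mean 0.038 CPM), Cox8c (0 CPM), Cox4i2 (0.173 CPM), Cox7b2 (0 CPM), Cox8b (0.018 CPM) and Ndufs5, which had 0 CPM in all 28 libraries. Ndufs5 is a complex I subunit and 19.7% of the 101-base stretches of its transcript also occur in a pseudogene. Just inside the limit were Cox6a2 (mean 1.15 CPM, 12 libraries at 1 CPM or more before TMM scaling) and Cox7a1 (mean 1.47 CPM, 23 libraries).

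Promoter sequences are shown for 4 members that the results turn on: Cox6a1 and Cox7a2, which had the largest rises from DN2/3 to DN4 in wild type, Atp5g1, which was among the 3 largest falls of Lmo2tg DN4 against wild type, and Ndufa6, which was higher in Lmo2tg at DN2/3. Each is the 250 bases before the gene's start in RefSeq (GRCm38.p6), 5′ to 3′ on the gene's strand, all 4 on the minus strand. They lie at chr5:115348959-115349208, chr9:79759854-79760103, chr11:96075632-96075881 and chr15:82354292-82354541 in the order given. Capitals mark a match on either strand to 1 of 6 letter strings.
Cox6a1: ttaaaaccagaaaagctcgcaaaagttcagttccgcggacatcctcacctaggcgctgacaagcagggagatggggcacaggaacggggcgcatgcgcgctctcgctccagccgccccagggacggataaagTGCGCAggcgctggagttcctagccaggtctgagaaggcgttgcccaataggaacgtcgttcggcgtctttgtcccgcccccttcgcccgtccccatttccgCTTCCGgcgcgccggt
Cox7a2: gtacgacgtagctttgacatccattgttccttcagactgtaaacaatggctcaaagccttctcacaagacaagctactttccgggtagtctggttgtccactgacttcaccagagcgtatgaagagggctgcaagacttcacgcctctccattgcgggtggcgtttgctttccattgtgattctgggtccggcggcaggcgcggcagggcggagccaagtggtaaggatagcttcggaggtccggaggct
Atp5g1: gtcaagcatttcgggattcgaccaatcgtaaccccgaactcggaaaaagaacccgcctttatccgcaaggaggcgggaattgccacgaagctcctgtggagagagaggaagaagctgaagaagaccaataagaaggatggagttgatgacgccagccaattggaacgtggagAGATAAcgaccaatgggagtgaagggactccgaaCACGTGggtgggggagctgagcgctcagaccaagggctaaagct
Ndufa6: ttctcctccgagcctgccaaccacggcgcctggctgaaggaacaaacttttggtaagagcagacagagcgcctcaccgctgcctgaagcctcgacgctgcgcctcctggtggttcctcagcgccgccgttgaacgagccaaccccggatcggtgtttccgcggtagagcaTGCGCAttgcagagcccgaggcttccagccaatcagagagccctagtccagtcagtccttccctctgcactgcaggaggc
The Cox6a1 promoter held TGCGCA (the core of NRF1 motifs) and CTTCCG, which is CGGAAG (an ETS-family core, as GABP binds) read on the other strand. That of Ndufa6 held TGCGCA, that of Atp5g1 held AGATAA (a motif of GATA factors) and CACGTG (an E-box of Myc and USF), and that of Cox7a2 held none of the 6.

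Over the 70 members with an entry in the RefSeq table, in windows of 300 bases that add the first 50 of the transcript, TGCGCA stood in 24.3% of members, against 8.06% of all 27025 promoters and 13.9% of the 10723 promoters of tested genes. CGGAAG stood in 41.4% of members, 17.2% of all promoters and 30.5% of those of tested genes. ATGGCG (YY1) stood in 25.7%, 9.24% and 15.1%. The other 3 strings were CACGTG at 7.14%, 7.24% and 9.89%, CAGNTG (the E-protein E-box) at 41.4%, 51.1% and 44.8%, and AGATAA at 8.57%, 11.4% and 6.81%. Both strands were searched and no string contains another. A match is a description of the letters, with no binding measured.

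Per kilobase of transcript, the members with the highest mean level were Atp5b at 808 CPM per kb, Atp5a1 at 420, Atp5g3 at 384, Uqcrh at 334, Atp5h at 333 and Cox4i1 at 320. The ATP synthase genes among these encode the F1 catalytic beta chain (Atp5b), the F1 alpha chain (Atp5a1), a form of the c-ring subunit (Atp5g3) and a stalk subunit (Atp5h). Uqcrh is the hinge protein of complex III and Cox4i1 the ubiquitous form of complex IV subunit 4. Uqcrh and Atp5a1 were named for this level after their values were seen.

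**Figure D1:**
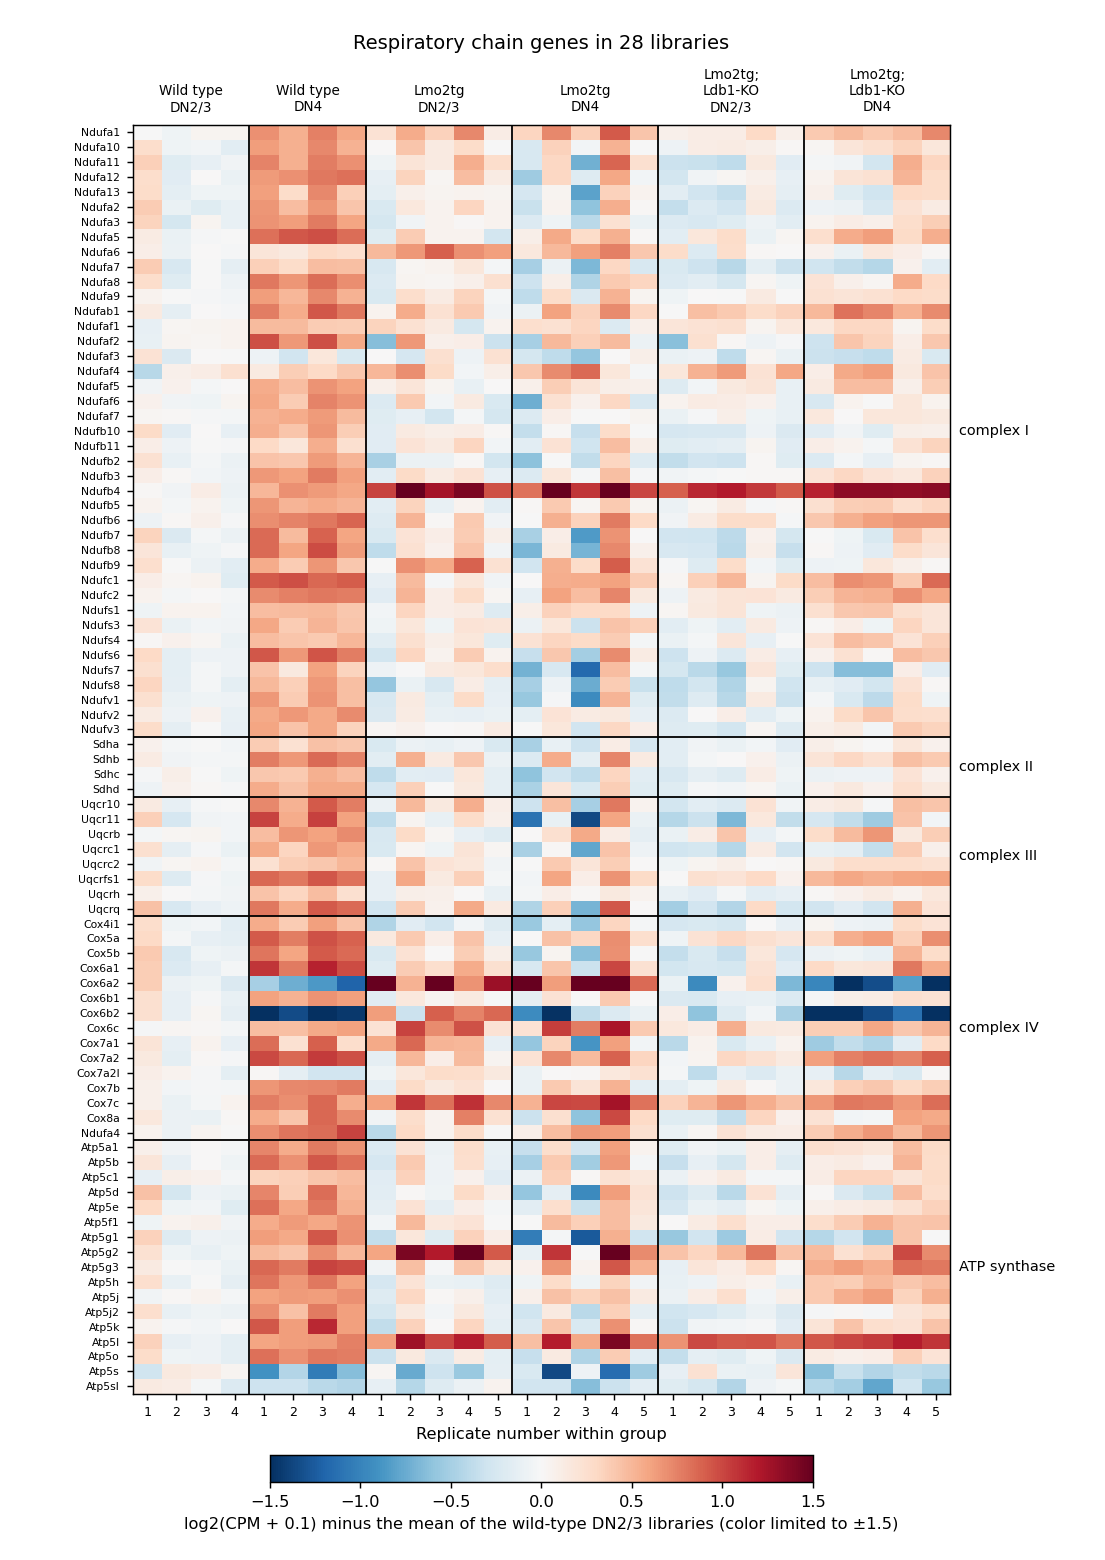
Each row is 1 of 85 respiratory chain genes, grouped by complex, and each column a library, with color giving log2(CPM + 0.1) minus the mean of the 4 wild-type DN2/3 libraries. The 4 wild-type DN4 columns are high for most rows, and the 5 Lmo2tg DN4 columns differ among themselves.

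In wild-type cells, respiratory chain mRNAs rose from DN2/3 to DN4 across all 5 complexes. Of 86 members, 74 rose and 4 fell, and the median fold was 1.53 (log2 0.61), against a median log2 change of -0.06 over all genes tested. Among all genes tested, 21.1% rose and 24.8% fell. For 80 of 86 members (93%) the 4 DN4 libraries did not overlap the 4 DN2/3 libraries, against 54.2% of all genes tested. The members together held 0.999 to 1.16% of the counts in wild-type DN2/3 and 1.42 to 1.54% in wild-type DN4. Calls rest on edgeR's quasi-likelihood F-test at an adjusted p (Benjamini-Hochberg over all genes tested) below 0.05.

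Complex I, the NADH dehydrogenase, had 37 of 42 members higher and none lower in wild-type DN4. Among its roles, 6 of 7 core subunits, 26 of 28 supernumerary subunits and 5 of 7 assembly factors rose, with median log2 changes of 0.47, 0.62 and 0.55. Ndufc1, a supernumerary subunit of the membrane arm (chr3:51404677-51408988, minus strand, mm10), was at 28.4, 27.1, 27.7 and 23.5 CPM at wild-type DN2/3 and 50.3, 52.2, 48.3 and 49.9 CPM in wild-type DN4. Every Ndufc1 value at DN4 lay above every value at DN2/3, and the log2 change was 0.91 ± 0.138 (SE, adjusted p 1.54e-05, edgeR).

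Complex II, succinate dehydrogenase, had all 4 genes higher. Its flavoprotein Sdha was at 308, 288, 293 and 286 CPM at wild-type DN2/3 and 383, 344, 399 and 389 CPM in wild-type DN4, again without overlap. The log2 change of Sdha was 0.37 ± 0.0899 (adjusted p 0.00177, edgeR). Complex III had all 8 genes higher, with a median log2 change of 0.67. Uqcrc2, a core protein of complex III, had 208 to 224 CPM in DN2/3 and 254 to 306 CPM in DN4 (log2 0.38 ± 0.0967, adjusted p 0.00261, edgeR); 26.6% of its exon bases overlap Pdzd9, and the strand setting of the counting is not given.

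Complex IV, cytochrome c oxidase, split by the kind of gene. All 11 genes of its ubiquitous subunits rose, with a median log2 change of 0.72, while none of the 3 tissue-restricted isoforms did. Cox6a1, the ubiquitous form of subunit 6a (chr5:115345642-115348981, minus strand, mm10), had 145, 97.5, 103 and 110 CPM at wild-type DN2/3 and 237, 193, 250 and 221 CPM in wild-type DN4. These groups did not overlap, and the log2 change of Cox6a1, 0.99 ± 0.216 (adjusted p 0.00068, edgeR), was the largest rise among the members. Cox7a2, the ubiquitous form of subunit 7a (chr9:79755361-79759878, minus strand, mm10), had 74.4 to 91.2 CPM in DN2/3 and 150 to 170 CPM in DN4 (log2 0.97 ± 0.136, adjusted p 5.79e-06, edgeR). Cox4i1, which carries 20.1% of exon bases in common with Emc8, had 218 to 292 CPM and then 317 to 374 CPM (log2 0.49 ± 0.147, adjusted p 0.00831, edgeR). Cox7a2l, a factor that joins complexes III and IV into supercomplexes, was at 182 to 216 CPM and 164 to 203 CPM (log2 -0.17) and did not pass.

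ATP synthase had 14 of 17 genes higher: 5 of 5 F1 subunits and 9 of 10 Fo or stalk subunits, with median log2 changes of 0.68 and 0.67. Atp5b had 1540, 1250, 1360 and 1300 CPM at wild-type DN2/3 and 2440, 2190, 2590 and 2400 CPM in wild-type DN4, a log2 change of 0.82 ± 0.192 (adjusted p 0.00122, edgeR). Atp5s and Atp5sl, which are counted here by name alone and are no subunits of the enzyme, both fell. Atp5s went from 7.86 to 10.7 CPM in DN2/3 to 4.63 to 7.11 CPM in DN4 (log2 -0.76 ± 0.225, adjusted p 0.00811, edgeR), and Atp5sl from 43.5 to 55.1 CPM to 37 to 40.7 CPM (log2 -0.37 ± 0.117, adjusted p 0.0116, edgeR). The other members that fell were the isoforms Cox6b2 and Cox6a2, described further on.

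In wild type, immediate early and heat shock genes (10 of 10 measured, none at 0) summed to 2060 to 3600 CPM at DN2/3 and 665 to 1140 CPM at DN4, and double-positive thymocyte markers (5 of 6 in the table, none at 0) to 71.3 to 87.2 CPM and 257 to 397 CPM. Mature T cell markers (6 of 6 measured, none at 0) went from 607 to 794 CPM to 152 to 254 CPM, and those of NK and innate lymphoid cells (6 of 6, Gata3 included) from 335 to 377 CPM, with Ncr1 and Eomes at 0, to 500 to 659 CPM. Neither sum describes its whole list. Of the mature T cell markers 2 were called higher and 2 lower (median log2 -0.04). Of 5 NK and innate lymphoid markers tested 2 were higher and 1 lower (median log2 0.12), against 21.1% higher and 24.8% lower over all genes tested. B cell markers (6 of 6, Pax5 at 0 at both stages) went from 39.9 to 42.6 CPM to 10.8 to 13.9 CPM, myeloid markers (7 of 7, S100a8 at 0 at both) from 25.3 to 32.5 CPM to 7.74 to 9.05 CPM, and stroma and epithelium markers (5 of 5, Krt5 at 0 at both) from 196 to 218 CPM to 86.4 to 120 CPM. Their part in the stage step of the respiratory chain genes was not tested.

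In Lmo2tg 3 of 86 members passed in the same step: Ndufa4 and Atp5j rose and Cox6b2 fell. The median fold was 1.01, against 1.53 in wild type, and over all genes tested 8.32% rose and 7.04% fell. No member had DN2/3 and DN4 libraries that did not overlap, against 4.48% of all genes tested. Atp5b had 1140, 1790, 1290, 1620 and 1250 CPM in Lmo2tg DN2/3 and 961, 1790, 950, 2140 and 1330 CPM in Lmo2tg DN4. The DN4 values of Atp5b spanned the whole range of the DN2/3 values and beyond on both sides, and the log2 change was 0.02 ± 0.171 (adjusted p 0.964, edgeR). Sdha (log2 -0.05, adjusted p 0.695), Uqcrc2 (0.03, 0.83), Cox4i1 (0.06, 0.798) and Cox6a1 (0.03, 0.945) did not pass in edgeR's test either.

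Ndufa4, counted here with complex IV, where its protein is found, had 78.4 to 128 CPM in Lmo2tg DN2/3 and 110 to 163 CPM in Lmo2tg DN4 (log2 0.37 ± 0.115, adjusted p 0.0305, edgeR). Atp5j, a stalk subunit with 22.5% of its exon bases in common with Gabpa, had 102 to 144 CPM and 123 to 158 CPM (log2 0.27 ± 0.092, adjusted p 0.0475, edgeR). Both calls were lost without any 1 of Lmo2tg DN2/3 replicates 1, 3 and 5 or DN4 replicates 2, 3 and 4, and Atp5j also without DN2/3 replicate 4. Adjusted p then ran from 0.0571 to 0.0974 for Ndufa4 and from 0.0602 to 0.138 for Atp5j. The count of 3 members went to 1 without any of DN2/3 replicates 1, 3 and 5 or DN4 replicates 2 and 3, to 10 (9 higher, 1 lower) without DN2/3 replicate 2 and to 5 (4 higher, 1 lower) without DN4 replicate 1. Without DN4 replicate 5 it was 6, of which 5 were higher and 1 lower, with 18.2% of all genes called. Without DN4 replicate 4 it was also 6, but all 6 were lower, only 1 of them among the 3 above, with 24% of all genes called and a median log2 change of -0.12 for the 86 members.

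Same-numbered DN2/3 and DN4 libraries of a genotype deviated together, so the numbers were taken to pair the samples. This was least clear in wild type, where DN2/3 replicate 3 correlated at 0.13 with DN4 replicate 3 and best with DN4 replicate 4. With the replicate as a block within genotype, 20 members passed in Lmo2tg (14 higher, 6 lower, the 3 above included), against 18.6% higher and 20.1% lower over all genes tested. Cox7a2 then passed with a log2 change of 0.33 (adjusted p 0.000246, against 0.0663 without the block), Ndufc1 with 0.33 (0.00451, against 0.0747) and Ndufa6 with -0.185 (0.0274, against 0.241). Cox7a2 had 75, 116, 88.6, 115 and 84.7 CPM in Lmo2tg DN2/3 and, in the same order, 95.5, 136, 115, 152 and 103 CPM in Lmo2tg DN4. It was higher at DN4 in 5 of 5 pairs.

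The libraries of Lmo2tg DN4 stood further apart than those of any other group (SD of their mean member level 0.291, against 0.0738 to 0.156). The mean log2 level of the 86 members, relative to wild-type DN2/3, was -0.192, 0.26, -0.124, 0.521 and 0.0909 in its replicates 1 to 5, against 0.452 to 0.626 in the 4 wild-type DN4 libraries. Replicate 4 reached the wild-type DN4 range and replicates 1 and 3 lay below every wild-type DN2/3 library. Summed over the members, these 5 libraries had 8440, 12340, 8950, 14860 and 10540 CPM, and wild-type DN4 had 14410 to 16530 CPM. In the same order, double-positive thymocyte markers summed to 1800, 683, 482, 502 and 432 CPM, mature T cell markers (6 of 6 measured) to 801, 397, 1430, 450 and 1010 CPM, and immediate early and heat shock genes to 1620, 2370, 2330, 3610 and 2670 CPM. Their part in the spread of the members was not tested. Part of the replicate order recurred in the other transgenic groups. In Lmo2tg DN2/3, Ldb1-KO DN2/3 and Ldb1-KO DN4, replicate 1 was lowest, at -0.0706, -0.133 and 0.0734. Replicate 4 was at 0.287, 0.0988 and 0.303, the highest in both Ldb1-KO groups, and in Lmo2tg DN2/3 replicate 2 was highest (0.296). Replicate 3 was at 0.132, -0.0217 and 0.111. The part of the replicate number in the spread was not tested either.

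**Figure D2:**
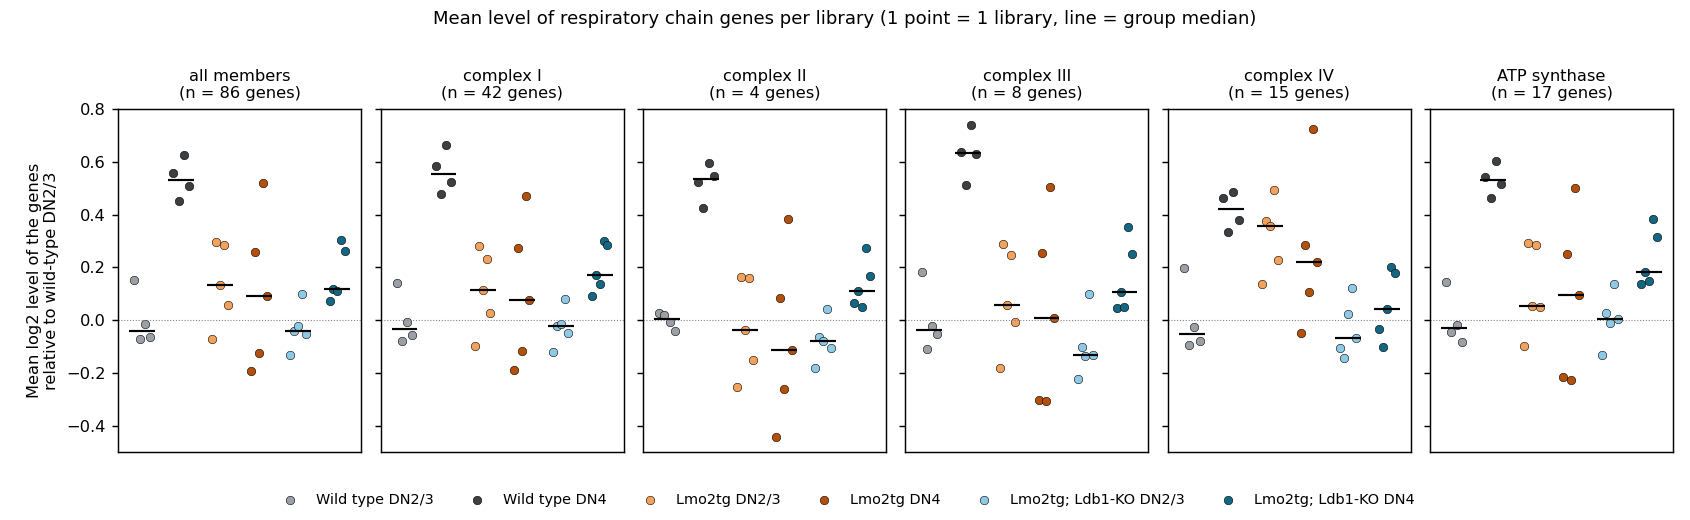
Mean log2 level of the members in each library relative to wild-type DN2/3, for all 86 genes and for each complex, with 1 point per library and a line at the group median. The 4 wild-type DN4 libraries lie between 0.452 and 0.626 for all members, and the 5 Lmo2tg DN4 libraries between -0.192 and 0.521.

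In Ldb1-KO 29 of 86 members rose from DN2/3 to DN4 and 3 fell, and the median fold was 1.2, while 12.3% of all genes tested rose and 15.8% fell. The rises covered 14 of 42 genes of complex I, 2 of 8 of complex III, 6 of 15 of complex IV and 7 of 17 of ATP synthase. None of the 4 genes of complex II passed. For 30 members (34.9%) the DN4 libraries did not overlap those of DN2/3, against 23.7% of all genes tested. The mean log2 level of the members ran from -0.133 to 0.0988 in the 5 Ldb1-KO DN2/3 libraries and from 0.0734 to 0.303 in the 5 Ldb1-KO DN4 libraries, and that range lay below the wild-type DN4 libraries. Over the same step double-positive markers summed to 134 to 187 and then 500 to 1840 CPM, mature T cell markers to 823 to 1340 and 296 to 602 CPM, myeloid markers to 26.6 to 37.2 and 9.92 to 20 CPM, and immediate early and heat shock genes to 3060 to 9070 and 1050 to 3390 CPM. The mature T cell list was split: its sum fell, but 2 of 6 markers were called higher and 1 lower (median log2 1.02). The part of these markers in the step was not tested.

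Cox7a2 had 80.4, 84.5, 102, 96.7 and 90.2 CPM in Ldb1-KO DN2/3 and 126, 139, 145, 138 and 154 CPM in Ldb1-KO DN4. Those groups did not overlap, and the log2 rise was 0.63 ± 0.121 (adjusted p 0.000368, edgeR). Atp5g3 had 190 to 253 CPM and 301 to 367 CPM (log2 0.57 ± 0.135, adjusted p 0.00268, edgeR). Cox6a1 had 93.1 to 131 CPM and 127 to 194 CPM (log2 0.55 ± 0.192, adjusted p 0.0335, edgeR), a call lost without any of Ldb1-KO DN2/3 replicates 1, 2, 3 and 5 or DN4 replicates 4 and 5 (adjusted p 0.058 to 0.101). Ndufc1 rose by a log2 of 0.37 ± 0.123 (adjusted p 0.0257, edgeR), lost without DN2/3 replicate 1 or 4 or DN4 replicate 2 or 5 (0.0569 to 0.0808). The 3 that fell were Cox6a2, Cox6b2 and Atp5sl, which went from 37.2 to 49.4 CPM to 29.2 to 40.9 CPM (log2 -0.32 ± 0.105, adjusted p 0.0244, edgeR). The Atp5sl call was lost without DN2/3 replicate 4 or 5 or DN4 replicate 3 or 5 (0.0603 to 0.0787).

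With the replicate block, 59 members passed in Ldb1-KO, 55 higher and 4 lower, the 32 above included, against 22.5% higher and 25.7% lower over all genes tested. Among the members of highest mean CPM in their complex, this added Atp5b (log2 0.38, adjusted p 0.00224, against 0.0967 without the block), Uqcrc2 (0.22, 0.00186, against 0.0631), Cox4i1 (0.24, 0.0174, against 0.177) and Sdha (0.17, 0.0233, against 0.108). Without the block, leaving out Ldb1-KO DN2/3 replicate 1 or replicate 5 brought the count of 32 to 20.

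**Figure D3:**
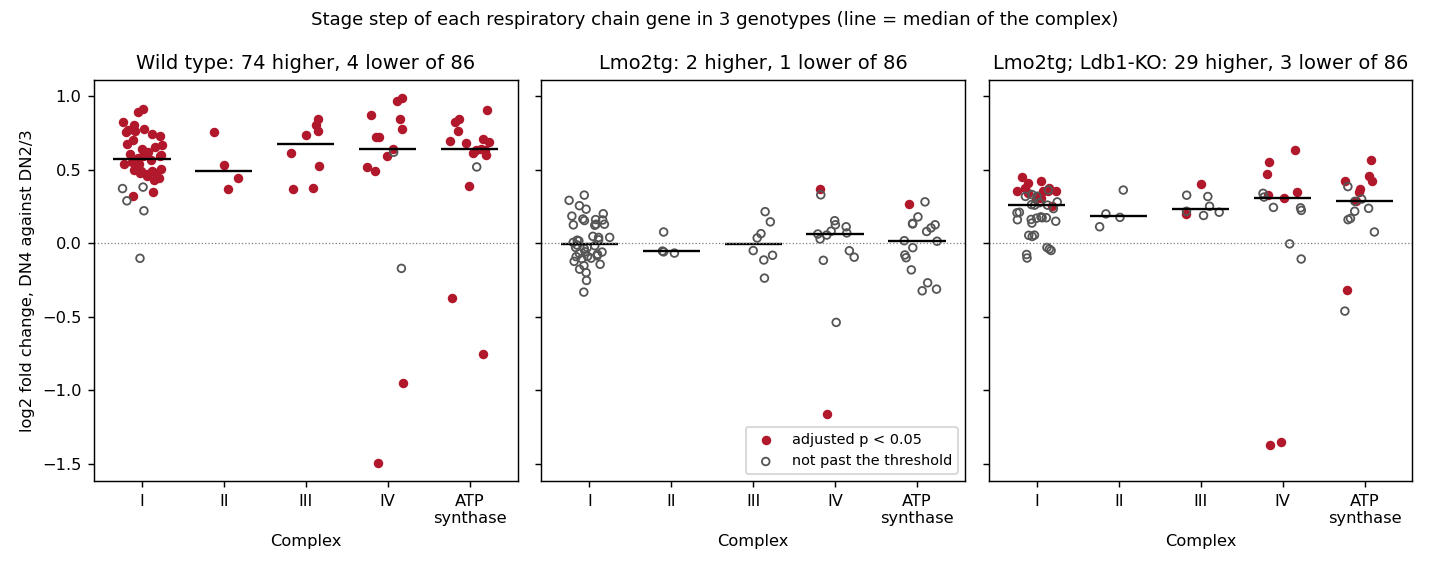
log2 fold change of DN4 against DN2/3 for each respiratory chain gene by complex, in 1 panel per genotype, with filled points at an adjusted p below 0.05 and a line at the median of the complex. The panels hold 74 rises and 4 falls in wild type, 2 and 1 in Lmo2tg, and 29 and 3 in Ldb1-KO.

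The difference in the step between genotypes was tested directly. Between Lmo2tg and wild type, 54 of 86 members had a lower log2 stage change with the transgene and none a higher one. A lower change can be a smaller rise or a fall. The median log2 difference was -0.60, and over all genes tested 14.7% were higher and 11% lower. These 54 were 26 genes of complex I, 4 of complex II, 4 of complex III, 9 of complex IV and 11 of ATP synthase. Atp5b had a difference of -0.81 ± 0.257 (adjusted p 0.0255, edgeR), Sdha of -0.42 ± 0.121 (0.0148), Cox7a2 of -0.64 ± 0.181 (0.0143) and Atp5o, a stalk subunit, of -0.75 ± 0.188 (0.00763). The count went to 31 without Lmo2tg DN2/3 replicate 2, to 32 without wild-type DN2/3 replicate 2 or Lmo2tg DN4 replicate 1, to 35 without wild-type DN2/3 replicate 4 or wild-type DN4 replicate 3, and to 25 when only the 4 groups compared were fitted.

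Between Ldb1-KO and wild type, a comparison added after the data were seen, the median log2 difference of the steps was -0.34 and no member passed edgeR's test, 19 having an unadjusted p below 0.05. Over all genes tested 0.181% were higher and 0.0348% lower. DESeq2 called 1 member. With the replicate block 47 members had a lower log2 stage change in Ldb1-KO than in wild type and none a higher one. Over all genes tested this block gave 9.35% lower and 10.2% higher. Fitting only the 4 groups gave 23 members. The block takes the wild-type numbers as pairs, which is not settled for wild-type replicate 3. The smallest adjusted p was that of Ndufaf7, an assembly factor that methylates a complex I subunit (-0.38 ± 0.109, adjusted p 0.122, edgeR, and 0.0157 with the block).

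Between Ldb1-KO and Lmo2tg, the median log2 difference of the steps was 0.24. No member passed edgeR's test and 3 had an unadjusted p below 0.05, with 0.132% of all genes tested higher and 1.22% lower. The count was 1 without Lmo2tg DN4 replicate 4 and 0 without any other library. With the replicate block 18 members had a higher log2 stage change in Ldb1-KO and 1, Cox6a2, a lower one. Over all genes tested this block gave 6.25% higher and 7.2% lower. The smallest adjusted p was that of Cox6a2 (log2 -1.5 ± 0.493, 0.166, edgeR), which passed with the block (-1.52, adjusted p 0.00625).

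Compared at DN4, both transgenic genotypes had lower respiratory chain mRNA than wild type. In Lmo2tg 65 of 86 members were lower and 5 higher (median fold 0.705, log2 -0.50), against 23.5% lower and 28.9% higher over all genes tested and a median log2 difference of 0.07. For 40 members (46.5%) the groups did not overlap, against 30% of all genes tested. Lower members were 33 of 42 in complex I, with 7 of 7 core subunits, 4 of 4 in complex II, 7 of 8 in complex III, 8 of 15 in complex IV and 13 of 17 in ATP synthase, with 5 of 5 F1 subunits. In Ldb1-KO 51 were lower and 1 higher (median fold 0.758), against 14.4% lower and 18.2% higher over all genes tested. Here 56 members (65.1%) did not overlap, against 33.1% of all genes tested. Those 51 were 27 genes of complex I, 4 of complex II, 5 of complex III, 7 of complex IV and 8 of ATP synthase, and the count was 29 without wild-type DN4 replicate 3. Both comparisons use the same 4 wild-type DN4 libraries.

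The largest falls against wild type in Lmo2tg DN4 were those of Uqcr11, Atp5g1 and Atp5o, and in Ldb1-KO DN4 those of Uqcr11, Cox7a1 and Atp5g1. Uqcr11, a small subunit of complex III (chr10:80402997-80406830, minus strand, mm10), had 141, 102, 142 and 106 CPM in wild-type DN4, 32.3, 64.5, 27.2, 105 and 64.7 CPM in Lmo2tg DN4, and 58.3, 53.8, 47.9, 93.7 and 67.8 CPM in Ldb1-KO DN4. Replicate 4 of Lmo2tg DN4 overlapped wild type and its other 4 libraries did not. The log2 difference from wild type was -1.06 ± 0.27 in Lmo2tg (adjusted p 0.00219, edgeR) and -0.94 ± 0.27 in Ldb1-KO (0.0117). Atp5g1, a second form of the c-ring subunit (chr11:96068852-96075670, minus strand, mm10), had 187, 179, 230 and 195 CPM in wild-type DN4, 58.8, 119, 50.3, 175 and 98.4 CPM in Lmo2tg DN4, and 90, 98.8, 82.5, 161 and 120 CPM in Ldb1-KO DN4. No transgenic library reached the wild-type range of Atp5g1, and the log2 differences were -0.98 ± 0.255 (adjusted p 0.0026, edgeR) and -0.84 ± 0.255 (0.0152).

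Atp5o had 294, 267, 286 and 282 CPM in wild-type DN4 and 130, 182, 121, 216 and 149 CPM in Lmo2tg DN4, with no overlap (log2 -0.82 ± 0.132, adjusted p 2.21e-05, edgeR). Atp5b was lower by a log2 of -0.75 ± 0.181 (adjusted p 0.00146, edgeR) in Lmo2tg and -0.60 ± 0.181 (0.0152) in Ldb1-KO. Sdha was lower by -0.57 ± 0.0849 (adjusted p 9.39e-06, edgeR) and -0.30 ± 0.085 (0.0113). Cox4i1 was lower by -0.66 ± 0.139 (adjusted p 0.000426, edgeR) in Lmo2tg. Uqcrc2 did not pass in Lmo2tg (-0.18 ± 0.0915, adjusted p 0.0984, edgeR), but did without wild-type DN4 replicate 1 or Lmo2tg DN4 replicate 2 or 4 (0.0374 to 0.0441).

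Cox7a1, the heart and muscle form of subunit 7a, was low in all groups: 1.56 to 2.54 CPM in wild-type DN4, 0.668 to 2.08 CPM in Lmo2tg DN4 and 0.879 to 1.65 CPM in Ldb1-KO DN4. Its Ldb1-KO difference at DN4 was -0.86 ± 0.283 (adjusted p 0.0234, edgeR), lost without wild-type DN4 replicate 1 or 3 or Ldb1-KO DN4 replicate 1, 2 or 3 (0.0528 to 0.0782). The 5 members that were higher in Lmo2tg DN4 were Cox6a2, Cox6b2, Ndufb4, Ndufa6 and Cox7a2l, and the 1 higher in Ldb1-KO DN4 was Ndufb4. Cox7a2l had a log2 difference of 0.24 (adjusted p 0.0406, edgeR) in Lmo2tg, a gene named after its values were seen.

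At DN4, mature T cell markers summed to 152 to 254 CPM in wild type, 397 to 1430 CPM in Lmo2tg and 296 to 602 CPM in Ldb1-KO. Double-positive markers summed to 257 to 397, 432 to 1800 and 500 to 1840 CPM, and immediate early and heat shock genes to 665 to 1140, 1620 to 3610 and 1050 to 3390 CPM. B cell markers (6 of 6 measured) summed to 10.8 to 13.9 CPM in wild type, with Pax5 at 0, and to 11.6 to 91.2 and 13.1 to 21.2 CPM in the other 2 groups. Erythroid markers (5 of 5) summed to 0.872 to 1.25, 4.04 to 19.4 and 4.56 to 28.4 CPM, with Hbb-bs at 0 in all 3. Myeloid markers summed to 7.74 to 9.05, 13.3 to 26.7 and 9.92 to 20 CPM, and stroma and epithelium markers to 86.4 to 120, 111 to 219 and 117 to 154 CPM. The part of these in the DN4 differences was not tested.

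Between Ldb1-KO and Lmo2tg at DN4, which share the transgene and the library series, 2 members were higher and 3 lower, with 5.85% and 8.71% of all genes tested. The groups did not overlap for 3 members, against 7.13% of all genes tested. Atp5h had 189, 238, 188, 249 and 191 CPM in the Lmo2tg libraries and 260, 254, 276, 262 and 273 CPM in those of Ldb1-KO (log2 0.33 ± 0.0959, adjusted p 0.0208, edgeR). Every Ldb1-KO value of Atp5h lay above every Lmo2tg value, but the call was lost without Lmo2tg DN4 replicate 1, 3 or 5 (0.0555 to 0.0587). Sdha was higher by 0.27 ± 0.0804 (adjusted p 0.0233, edgeR), lost without Lmo2tg DN4 replicate 1, 3 or 5 or Ldb1-KO DN4 replicate 4 (0.054 to 0.0737). The 3 lower members were Cox6a2, Cox6b2 and Ndufa6. The count of 5 went to 3 without Lmo2tg DN4 replicate 3 or 5, to 11 without its replicate 4, and to 1 when only the groups compared were fitted.

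At DN2/3 few members passed in the comparisons with wild type. In Lmo2tg 9 members were higher than in wild type and none lower, against 15.1% higher and 14.4% lower over all genes tested, and the median fold was 1.05. In Ldb1-KO 3 were higher and none lower (6.98% and 2.58% over all genes tested). Of these, Ndufb4, Atp5l and Cox7c were higher in both comparisons, which use the same wild-type libraries, and Atp5g2 was called in Lmo2tg (its difference between Ldb1-KO and Lmo2tg had an adjusted p of 0.0569 in edgeR's test). These 4 are the members with the largest share of transcript sequence found in another gene. In wild type, Lmo2tg and Ldb1-KO at this stage, double-positive markers summed to 71.3 to 87.2, 115 to 214 and 134 to 187 CPM and mature T cell markers to 607 to 794, 894 to 1330 and 823 to 1340 CPM, and their part in these differences was not tested.

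Counting such genes depends on where reads with more than 1 match are placed, and that setting is not stated in the labels or processing notes. The share of 101-base stretches (the read length) of the main GENCODE M21 transcript that occur unchanged in a transcript of another gene was 86.4% for Atp5g2, all in 2 pseudogenes. It was 68.7% for Atp5l (61.3% in pseudogenes), 44.1% for Cox7c (20.9%) and 33.3% for Ndufb4 (33.3%). The next were Atp5h at 29.2% and Ndufb6 at 28.1%. Of 86 members 30 shared at least 1 stretch, 15 with a pseudogene, 17 had 10% or more of their stretches shared, and 56 shared none. Both strands were searched and overlapping neighbors were kept, so these counts mix copies elsewhere with overlap at 1 locus. Ndufa13 (23.9% shared, 30% of exon bases in common with Tssk6) and Uqcrc2 (22.7%, 26.6% with Pdzd9) shared 0% with pseudogenes. Atp5g2, Atp5l, Cox7c and Ndufb4 had 0% of exon bases in common with another counted gene. Among the 17, 5 were higher in Lmo2tg than in wild type at DN2/3 and 3 in Ldb1-KO. Among the other 69 these counts were 4 and 0. In the wild-type stage step, 15 of the 17 and 59 of the 69 rose, with median log2 changes of 0.61 in both. In Lmo2tg against wild type at DN4, 10 of the 17 and 55 of the 69 were lower, with medians of -0.34 and -0.56.

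Ndufb4, a supernumerary subunit of complex I (chr16:37647170-37654453, minus strand, mm10), had 15.8, 15.1, 16.9 and 14.7 CPM at wild-type DN2/3, 31.6, 51.5, 37.3, 41.6 and 30.3 CPM in Lmo2tg DN2/3 and 29.1, 34.3, 35.6, 32.7 and 29.6 CPM in Ldb1-KO DN2/3. All 10 transgenic libraries lay above all 4 wild-type ones. The log2 differences were 1.3 ± 0.144 (adjusted p 1.3e-07, edgeR) and 1.04 ± 0.143 (1.5e-05). At DN4 they were 0.63 ± 0.142 (0.000774) and 0.71 ± 0.142 (0.000975), with 22.1 to 25.1 CPM in wild type, 27.6 to 46.1 CPM in Lmo2tg and 34.8 to 39.9 CPM in Ldb1-KO. Ndufb4 was the only member called higher than wild type in both transgenic genotypes at both stages.

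Atp5l, the g subunit of the membrane part of ATP synthase (chr9:44912557-44920742, minus strand, mm10), had 67.3 to 94.7 CPM at wild-type DN2/3, 114 to 180 CPM in Lmo2tg DN2/3 and 119 to 148 CPM in Ldb1-KO DN2/3. Neither transgenic range met the wild-type one, and the log2 differences were 1.00 ± 0.156 (adjusted p 1.99e-05, edgeR) and 0.87 ± 0.155 (0.000462). At DN4 neither passed (0.28, adjusted p 0.132, and 0.39, 0.0506). The first did without Lmo2tg DN4 replicate 1 (0.0411), and the second with DESeq2 (0.0416) and when only those 2 groups were fitted (0.00142). Cox7c, a complex IV subunit (chr13:86044816-86046904, minus strand, mm10), had 72.9 to 82.1 CPM at wild-type DN2/3, 119 to 167 CPM in Lmo2tg and 99.7 to 124 CPM in Ldb1-KO, also without overlap (log2 0.88 ± 0.116, adjusted p 2.01e-06, and 0.50 ± 0.115, 0.0055, edgeR). At DN4 the Cox7c differences were 0.21 (adjusted p 0.124, or 0.0241 without Lmo2tg DN4 replicate 1) and 0.02 (0.909).

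Atp5g2, the third form of the c-ring subunit (chr15:102662864-102672352, minus strand, mm10), had 116, 94.8, 91.4 and 94.7 CPM at wild-type DN2/3, 149, 262, 225, 339 and 187 CPM in Lmo2tg DN2/3 and 133, 124, 138, 171 and 133 CPM in Ldb1-KO DN2/3. The log2 difference was 1.23 ± 0.285 (adjusted p 0.00171, edgeR) in Lmo2tg and 0.49 ± 0.28 (0.273, and 0.00811 when only those 2 groups were fitted) in Ldb1-KO, where the values did not overlap wild type either. At DN4 the 5 Lmo2tg libraries of Atp5g2 spread from 91.4 to 369 CPM, around the wild-type range of 132 to 160 CPM (log2 0.39, adjusted p 0.251). Of the other c-ring genes, which encode the same mature subunit, Atp5g1 was lower by -0.98 in Lmo2tg than in wild type at DN4 and Atp5g3 by -0.42 ± 0.143 (adjusted p 0.0153, edgeR). Differences between the 3 genes were not tested, and 86.4% of the stretches of Atp5g2 occur in pseudogenes.

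The other 5 members higher in Lmo2tg than in wild type at DN2/3 were Cox6a2, Ndufa6, Cox6c, Ndufb9 and Ndufa1. The last 3 were named after their values were seen. Cox6c had 107 to 112 CPM in wild type and 127 to 222 CPM in Lmo2tg (log2 0.66, adjusted p 0.00415, edgeR), Ndufb9 had 70.1 to 92.7 and 77.6 to 144 CPM (0.50, 0.0317), and Ndufa1 had 29.3 to 31.4 and 33.1 to 50.7 CPM (0.41, 0.0117). Of these 3 only Ndufb9 overlapped between the groups, and 28.4% of all genes tested did not overlap.

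**Figure D4:**
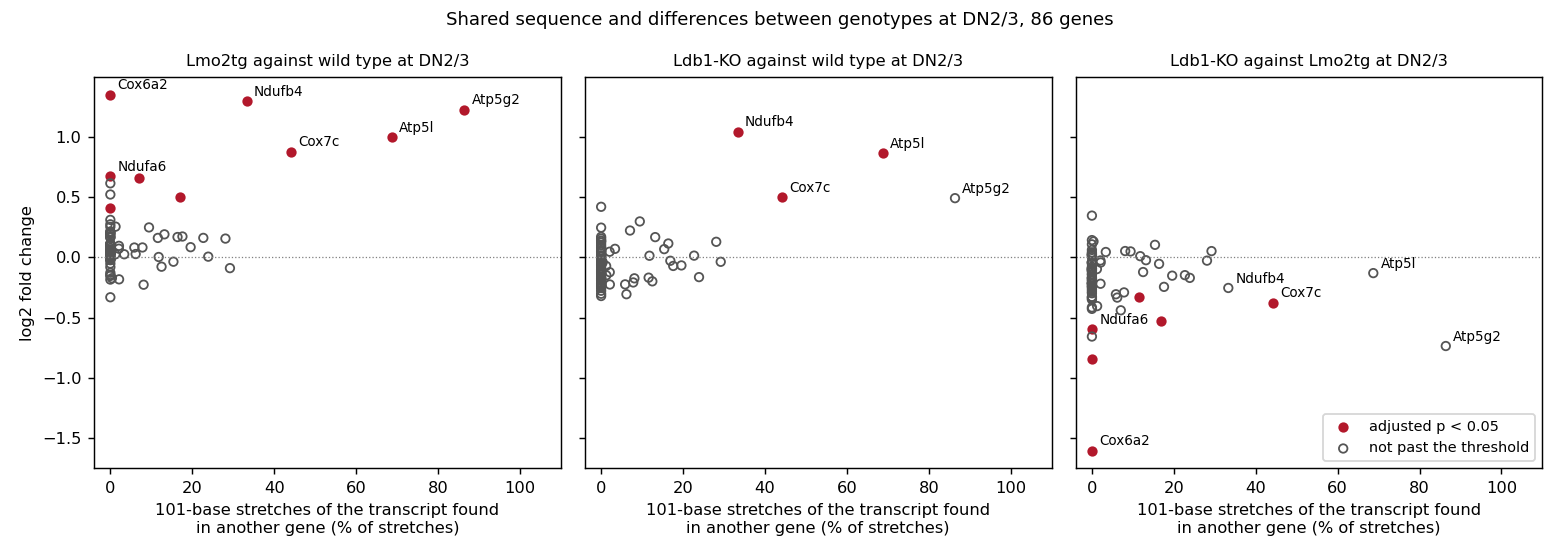
log2 fold change at DN2/3 against the percent of 101-base stretches of a member's transcript that occur in another gene, in 3 comparisons, with filled points at an adjusted p below 0.05. Ndufb4, Cox7c, Atp5l and Atp5g2, with 33.3% to 86.4% shared, lie above 0 in both comparisons with wild type and below 0 in Ldb1-KO against Lmo2tg.

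The muscle isoform Cox6a2 was higher in Lmo2tg than in the other genotypes, the testis isoform Cox6b2 fell from DN2/3 to DN4 in each genotype, and Ndufa6 was higher in Lmo2tg DN2/3 than in the other genotypes. Cox6a2, the heart and skeletal muscle form of subunit 6a (chr7:128205435-128206387, minus strand, mm10, with 10.3% of exon bases in common with Itgad), was low everywhere. It had 1.1, 0.777, 0.788 and 0.697 CPM at wild-type DN2/3, 3.03, 1.23, 2.87, 1.38 and 2.17 CPM in Lmo2tg DN2/3 and 0.77, 0.381, 0.873, 1.01 and 0.48 CPM in Ldb1-KO DN2/3. At DN4 it had 0.304 to 0.557 CPM in wild type, 1.34 to 3.17 CPM in Lmo2tg and 0.118 to 0.422 CPM in Ldb1-KO. At both stages all 5 Lmo2tg libraries lay above every library of the other 2 genotypes. Outside Lmo2tg only wild-type DN2/3 replicate 1 and Ldb1-KO DN2/3 replicate 4 reached 1 CPM. Cox6a2 thus met the level limit only through the group in which it was high, and its differences carry that limit.

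Cox6a2 was higher in Lmo2tg than in wild type by a log2 of 1.35 ± 0.366 at DN2/3 (adjusted p 0.00624, edgeR) and 2.43 ± 0.386 at DN4 (1.96e-05). It was lower in Ldb1-KO than in Lmo2tg by -1.60 ± 0.346 (adjusted p 0.00161, edgeR) and -3.10 ± 0.375 (3.14e-06), and Ldb1-KO and wild type did not differ past the threshold (adjusted p 0.688 and 0.177). From DN2/3 to DN4 it fell in Ldb1-KO (-1.37 ± 0.366, adjusted p 0.00631, edgeR), did not pass in Lmo2tg (0.12, 0.844) and passed narrowly in wild type (-0.95 ± 0.385, 0.0451). The wild-type call was lost without any wild-type library but DN4 replicate 1 (0.0501 to 0.135), with RLE size factors in place of TMM in edgeR (0.0516) and with no filter on low counts (0.0681).

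Striated muscle markers (10 of 10 in the table) were also highest at the median in Lmo2tg. At DN2/3 they summed to 14.5 to 17 CPM in wild type, 19.7 to 37.1 CPM in Lmo2tg and 10.2 to 38.7 CPM in Ldb1-KO, and at DN4 to 5.29 to 8.85, 16.7 to 46 and 5.51 to 18.7 CPM. The Lmo2tg values lay above wild type at both stages. The library at 38.7 CPM, Ldb1-KO DN2/3 replicate 1, had Cox6a2 at 0.77 CPM. Myh1, Myh2 and Mb were at 0 in all 6 groups, and Myh4 in all but Ldb1-KO DN4. The part of these markers in the Cox6a2 differences was not tested.

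Cox6b2, the testis form of subunit 6b (chr7:4751792-4753094, minus strand, mm10), had 27.7, 21.5, 24 and 21.3 CPM at wild-type DN2/3 and 8.26, 9.19, 7.51 and 8.55 CPM in wild-type DN4. In Lmo2tg it went from 36.3, 18.7, 43.8, 39.4 and 42.6 CPM to 12.2, 8.37, 18.1, 20.3 and 22 CPM, and in Ldb1-KO from 15.4 to 25.2 CPM to 5.42 to 10.8 CPM. It fell with stage in all 3 genotypes, by log2 values of -1.495 ± 0.263 in wild type (adjusted p 7.57e-05, edgeR), -1.16 ± 0.233 in Lmo2tg (0.00122) and -1.35 ± 0.236 in Ldb1-KO (0.000141). The Lmo2tg fall did not pass when only its own 2 groups were fitted (0.0639). Against wild type, Cox6b2 was higher in Lmo2tg by 0.95 ± 0.251 at DN4 (adjusted p 0.00292, edgeR) and by 0.62 ± 0.246 at DN2/3 (0.0619, and 0.0122 without Lmo2tg DN2/3 replicate 2). It was lower in Ldb1-KO than in Lmo2tg by -0.85 ± 0.232 (adjusted p 0.0114, edgeR) at DN2/3 and -1.04 ± 0.235 (0.00338) at DN4, the last at 0.0584 when only those 2 groups were fitted.

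Ndufa6, a supernumerary complex I subunit (chr15:82350140-82354322, minus strand, mm10), shared no stretch with another gene. It had 73.4, 64.3, 68.4 and 67.4 CPM at wild-type DN2/3, 96.1, 107, 127, 110 and 105 CPM in Lmo2tg DN2/3 and 82.5, 59.1, 81.8, 69.4 and 68.4 CPM in Ldb1-KO DN2/3. The Lmo2tg values lay above all others at that stage, by a log2 of 0.68 ± 0.106 against wild type (adjusted p 2.25e-05, edgeR), and Ldb1-KO was below Lmo2tg by -0.60 ± 0.0995 (9.8e-05). At DN4 it had 75.7 to 83.7 CPM in wild type, 76.5 to 115 CPM in Lmo2tg and 63.5 to 76.3 CPM in Ldb1-KO. Ldb1-KO was again below Lmo2tg (-0.45 ± 0.0994, adjusted p 0.00293, edgeR, and 0.0522 when only those 2 groups were fitted). The difference of Lmo2tg from wild type was 0.28 ± 0.106 (0.0295), lost without wild-type DN4 replicate 1, 2 or 4 or Lmo2tg DN4 replicate 3 or 4 (0.052 to 0.0882). With the replicate block the wild-type stage step of Ndufa6 passed (0.22, adjusted p 0.0114, against 0.107 without it).

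Over all members, Ldb1-KO DN2/3 was lower than Lmo2tg DN2/3 for 6 genes and higher for none, against 7.22% lower and 8.87% higher over all genes tested. Beside Cox6a2, Cox6b2 and Ndufa6 these were Ndufb9 (-0.53, adjusted p 0.0263, edgeR), Cox7c (-0.37, 0.0162) and Cox7a2l (-0.33, 0.0116), of which Ndufb9 and Cox7a2l were named after their values were seen. The median log2 difference of the 86 members was -0.145.

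**Figure D5:**
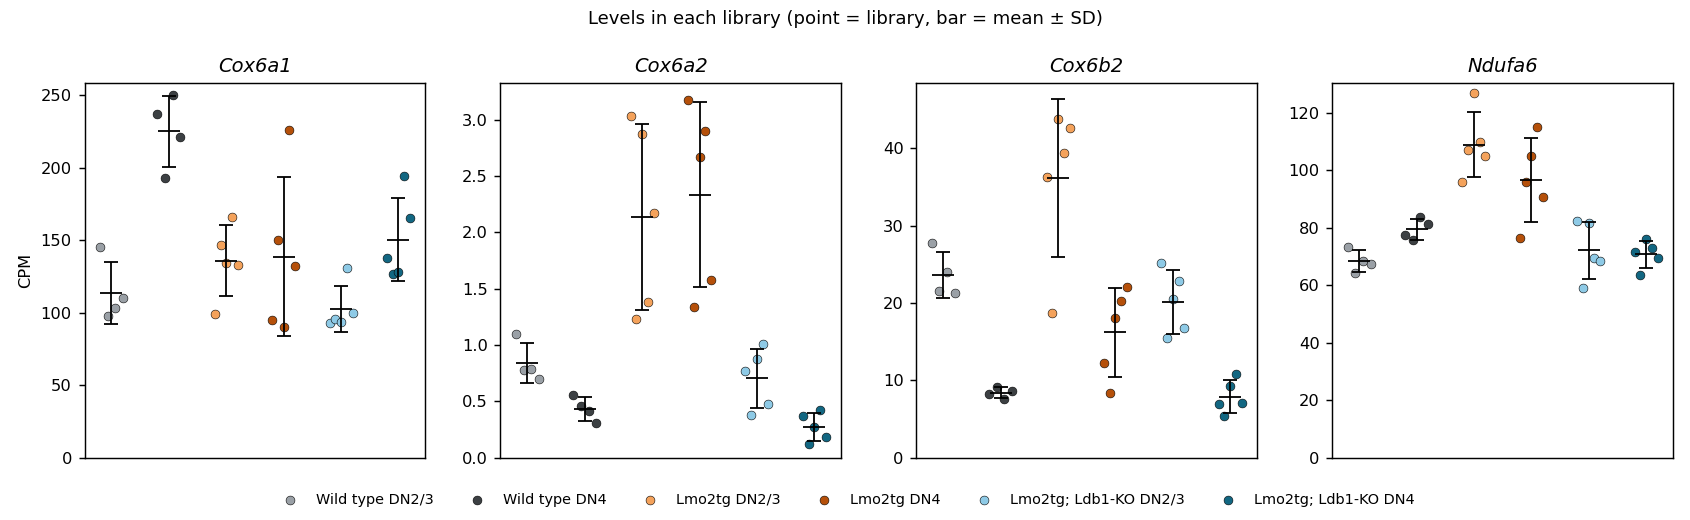
CPM of selected members in each library, with 1 point per library and a bar at the mean ± SD of the group. Cox6a2 is above the values of the other genotypes in the 5 Lmo2tg libraries of each stage, Cox6b2 is lower at DN4 than at DN2/3 in all 3 genotypes, and Ndufa6 is above the other genotypes in all 5 Lmo2tg DN2/3 libraries.

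Most genes of 5 of 7 lists of other mitochondrial functions also rose in wild type, where 21.1% of all genes tested rose and 24.8% fell. From DN2/3 to DN4 in wild type, 67 of 77 mitochondrial ribosomal protein genes rose and none fell (median log2 0.55). The counts were 16 of 24 for the import channel proteins, 11 of 16 for the citrate cycle and pyruvate dehydrogenase, 6 of 7 for electron carriers and subunits outside the name rule, 17 of 37 for other assembly factors and 6 of 14 for regulators, with none lower in any of these. Among uncoupling and antioxidant genes 8 of 12 rose and 1 fell. Cox17, the copper chaperone of complex IV, rose by a log2 of 0.93 ± 0.122 (adjusted p 2.46e-06, edgeR), Timm23, the pore of the inner-membrane translocase, by 0.88 ± 0.161 (0.000116), Dlat, a pyruvate dehydrogenase subunit, by 0.74 ± 0.108 (9.44e-06) and Etfa, an electron transfer flavoprotein, by 0.71 ± 0.122 (6.16e-05). Of the regulators, Polg, the mitochondrial DNA polymerase, rose by 1.49 ± 0.136 (adjusted p 1.77e-08, edgeR) and Nrf1 by 0.62 ± 0.116 (0.000144).

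In Lmo2tg, where 8.32% of all genes tested rose and 7.04% fell, the stage step had none of the ribosomal protein genes higher and 1 lower, and the median log2 change of the list was -0.04. That count of 1 was 7 without Lmo2tg DN2/3 replicate 2, 9 without DN4 replicate 4 and 19 with the replicate block, settings that called 20.4%, 24% and 38.8% of all genes. In Ldb1-KO 15 rose and 1 fell (12.3% and 15.8% of all genes tested), and 36 were called with the block, against 48.2% of all genes. In the other lists the stage step in Lmo2tg had 1 import gene lower, no citrate cycle gene called, 1 carrier lower, 2 assembly factors higher and 2 lower, 3 regulators higher and 1 antioxidant gene higher. In Ldb1-KO it had 1 import gene higher and 1 lower, 5 citrate cycle genes higher, 2 carriers higher, 2 assembly factors higher and 1 lower, 3 regulators higher and 1 lower, and 4 antioxidant genes higher.

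At DN4, 65 of 77 ribosomal protein genes were lower in Lmo2tg than in wild type and 1 was higher (median log2 -0.51), against 23.5% lower and 28.9% higher over all genes tested. So were 15 of 24 import genes (1 higher), 13 of 16 citrate cycle genes, 4 of 7 carriers, 20 of 37 assembly factors, 5 of 14 regulators (3 higher) and 6 of 12 antioxidant genes. Carriers went to 2 without wild-type DN4 replicate 4 or Lmo2tg DN4 replicate 5, and antioxidant genes to 3 without Lmo2tg DN4 replicate 1. Atpif1, the inhibitor of ATP hydrolysis by ATP synthase, was lower by -0.99 ± 0.153 (adjusted p 1.42e-05, edgeR), Fh1, fumarase, by -0.98 ± 0.159 (2.57e-05), Bcs1l, which inserts the Rieske protein into complex III, by -0.79 ± 0.104 (1.82e-06) and Pprc1, a coactivator of the PGC-1 family, by -0.89 ± 0.17 (0.00016).

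At DN2/3, where 15.1% of all genes tested were higher in Lmo2tg than in wild type and 14.4% lower, 6 of 77 ribosomal protein genes were higher and 1 lower, a share below that of all genes. There were also 4 import genes higher, 3 citrate cycle genes higher, 1 carrier higher, 1 assembly factor higher and 3 lower, 4 regulators higher and 1 lower, and 2 antioxidant genes higher and 1 lower. Ribosomal protein genes went from 7 called to 4 without wild-type DN2/3 replicate 2 or 4 or Lmo2tg DN2/3 replicate 2, and assembly factors from 4 to 2 without wild-type DN2/3 replicate 3 or Lmo2tg DN2/3 replicate 2 or 3. Cycs, the somatic cytochrome c that carries electrons between complexes III and IV, was higher by 1.09 ± 0.187 (adjusted p 7.1e-05, edgeR), Timm8a1, an intermembrane-space chaperone, by 1.68 ± 0.202 (4.33e-07) and Polg by 1.15 ± 0.13 (1.64e-07). How much of the Cycs and Timm8a1 transcripts occurs in other genes was not examined.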

How the data were processed

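The table the authors deposited holds raw counts per gene symbol for the 28 libraries, whole numbers in 24421 rows. Libraries came from a TruSeq V2 kit with paired 101-base reads, per the labels, and the submitters' processing notes name STAR 2.5.2a, featureCounts 1.4.6-p3 and mm10. The annotation, strand setting and treatment of multiply matching reads were not stated there, so that reads of overlapping genes or near-identical copies could be counted for either or dropped. Library names in the sample descriptions tied columns to samples, and 0 columns were left over. The series text gives 4 Ldb1-KO replicates and the labels, which were followed, 5. No replicate pair was a copy (lowest chi-square per degree of freedom 28.5).

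Counts were fitted with edgeR 4.0.16 in R 4.3.3 in a model of 6 groups (TMM, filterByExpr by group, robust quasi-likelihood F-test, two-sided), adjusted by Benjamini-Hochberg over 14371 genes. The script was tested on simulated data. SE is the log2 fold change divided by the square root of F. Of 12 contrasts, 11 were planned and 1 was added after seeing the data. Alternatives were DESeq2 1.42.0, RLE size factors, other filters, only the groups compared, replicate blocks and leaving out each library. Same-numbered DN2/3 and DN4 libraries of a genotype correlated in their deviations from the group means in every pair (0.13 to 0.725 in wild type, 0.532 to 0.857 in Lmo2tg, 0.63 to 0.837 in Ldb1-KO), above the limit of 0.1. The replicate numbers were therefore taken to pair the stages. In Lmo2tg and Ldb1-KO each DN2/3 library correlated best with its own number at DN4. Wild-type DN2/3 replicate 3 (0.13) correlated best with DN4 replicate 4, so its pairing is not settled. Across genotypes no 2 groups had every same-numbered pair above the limit. Lmo2tg and Ldb1-KO libraries passed it in 4 of 5 pairs at DN2/3 (0.0699 to 0.401) and 3 of 5 at DN4 (-0.0866 to 0.672), and their column names run consecutively by replicate number.

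Positions and transcripts are from GENCODE M21, which matched all 92 symbols (1 by synonym), and promoters from RefSeq, GRCm38.p6. Named genes were, per contrast, the 3 largest rises and falls among called members (or the smallest adjusted p), the highest-level member of each complex, the tissue-restricted isoforms, and for each pathway list the 2 genes with the smallest adjusted p in the main contrasts. 1 gene chosen by these rules is not reported here. Members, lists and rules were chosen with earlier results of these data known.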

Additional observations from a re-analysis of the deposited data

Results flagged for a closer look

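Of 150 groups of libraries checked for a single value far from the rest (25 genes in 6 groups), 6 had one, and chance gives about 1 in 20. Wild-type DN2/3 replicate 1 was high for 2 members: Atp5g2 at 116 CPM (others 91.4 to 94.8) and Atp5l at 94.7 CPM (67.3 to 71). Cox6a1 was at 131 CPM in Ldb1-KO DN2/3 replicate 4 (others 93.1 to 99.9). In Ldb1-KO DN4, Ndufb4 was at 34.8 CPM in replicate 1 (others 39.5 to 39.9), Uqcrc2 at 239 CPM in replicate 1 (254 to 259) and Ndufaf7 at 22.2 CPM in replicate 2 (24.5 to 25).

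The stage step differed between Lmo2tg and wild type for 54 members by edgeR's test of the difference, each with the lower log2 change in Lmo2tg. The largest differences were those of Cox7a1 (log2 -1.156, adjusted p 0.0368), Uqcr11 (-1.04, 0.0476) and Atp5g1 (-1.008, 0.0425). These calls were lost without any 1 of 10, 12 and 12 of the 18 libraries, at adjusted p of 0.0509 to 0.0771, 0.0542 to 0.0979 and 0.0506 to 0.0858. Fitted on the 4 groups alone, their adjusted p were 0.075, 0.0762 and 0.0683. Among the libraries that ended all 3 calls were wild-type DN2/3 replicates 2, 3 and 4, wild-type DN4 replicates 1 and 3, Lmo2tg DN2/3 replicates 2 and 4 and Lmo2tg DN4 replicates 1, 3 and 5. Uqcr11 was also lost without Lmo2tg DN2/3 replicate 3 or 5, and Atp5g1 without Lmo2tg DN2/3 replicate 5 or wild-type DN4 replicate 4.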

How the results depend on the processing

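The median log2 change of the members in the Lmo2tg stage step, 0.0156, turned below 0 with the replicate number as a common factor (-0.00365), with the replicate block within genotype (-0.0267), and without Lmo2tg DN2/3 replicate 1 (-0.0527) or 5 (-0.00927) or DN4 replicate 2 (-0.0265) or 4 (-0.12). No other median of the members changed sign under the alternatives run. Of 2431 values of single genes under an alternative, 29 had the other sign, and 0 of these were called in either fit. Counts of called members moved by over 1.5 times as follows. The stage step in Lmo2tg (3 members) gave 6 with DESeq2 (18.8% of all genes called), 0 when only the groups compared were fitted (2.47%) and 5 with the replicate number as a common factor (20.7%). With only the groups compared, the stage step in Ldb1-KO gave 51 (36.9% of all genes called), Ldb1-KO against Lmo2tg at DN4 gave 1 (5.2%), Ldb1-KO against wild type at DN2/3 gave 6 (22.3%), the Lmo2tg and wild-type difference in the step gave 25 (15.2%) and that of Ldb1-KO and wild type gave 23 (12.4%), where DESeq2 gave 1 (1.98%). The same setting ended the calls of Ndufa4 (adjusted p 0.248), Atp5j (0.285) and Cox6b2 (0.0639) in the Lmo2tg step, of Atp5h (0.121), Sdha (0.24), Cox6b2 (0.0584) and Ndufa6 (0.0522) in Ldb1-KO against Lmo2tg at DN4, and of Ndufa6 (0.107) in Lmo2tg against wild type at DN4. With no filter on low counts, Atp5j (0.0776) and that last difference of Ndufa6 (0.058) were lost as well. The cause of these moves was not tested. With the replicate block within genotype, which pairs the stages by replicate number, the counts were 20 for the step in Lmo2tg, 59 in Ldb1-KO, 19 for the Ldb1-KO and Lmo2tg difference and 47 for the Ldb1-KO and wild-type difference. That block was fitted for the stage steps and their differences alone. Among these it moved no other count of members by over 1.5 times and ended no call of a named member. For the comparisons of genotypes at 1 stage the number as a common factor was fitted, which gave 8 and 5 members for Ldb1-KO against Lmo2tg at DN2/3 and DN4 (6 and 5 without it).

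Leaving out 1 library at a time, counts ran from 65 to 78 for the step in wild type, 1 to 10 in Lmo2tg and 20 to 32 in Ldb1-KO. They ran from 8 to 9 for Lmo2tg against wild type at DN2/3 and 62 to 73 at DN4, 3 to 3 for Ldb1-KO against wild type at DN2/3 and 29 to 56 at DN4, and 4 to 8 for Ldb1-KO against Lmo2tg at DN2/3 and 3 to 11 at DN4. For the differences in the step they ran from 31 to 73 (Lmo2tg and wild type), 0 to 1 (Ldb1-KO and Lmo2tg) and 0 to 0 (Ldb1-KO and wild type). Cox6a2 and Cox7a1 lie near 1 CPM, and depth was not varied.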
